A study of Homo sapiens with 6 samples.

Results

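Annotated read-through loci are rows of a gene table that join neighbouring genes into a single transcription unit, named with a hyphen after the genes they join. They were examined here in the T-cell acute lymphoblastic leukaemia line CUTLL1, an established human line, with and without a short hairpin RNA (shRNA) against the mitotic kinase AURKB. The loci were the rows whose description holds the word readthrough and whose reads over the 6 libraries came to at least 20. Of 50868 rows, 114 carried the word and 80 met the minimum, while 19 had 1 to 19 reads and 15 had none. The shAURKB group received a lentivirus with an AURKB shRNA, and the shGFP group a lentivirus with a control shRNA named for GFP. All 6 cultures were the same line, were selected with puromycin and had total RNA taken at 48 h, and each group held 3 libraries, described as biological replicates. How many hairpin sequences were used is not given in the labels. The loci were chosen by their summed reads in these same libraries, so their abundance is given as a description.

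A gene normally ends where the nascent RNA is cleaved and polyadenylated, after which RNA polymerase II is released. When cleavage at the upstream gene is passed over, transcription can run into the next gene on the same strand, and splicing can then join exons of both genes into a conjoined transcript. Some such transcripts keep a reading frame across the junction, and others carry an early stop codon and are candidates for nonsense-mediated decay (NMD), the pathway that removes messages with premature stops. Because a read-through transcript is built largely from exons of the genes it joins, called parents below, most short reads from it could equally come from a parent.

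Of the 80 loci, 78 joined a pair of genes and 2 joined 3 genes. The descriptions marked 24 as NMD candidates and 2 as pseudogenes. Their names gave 162 parents, of which 161 were matched to a row of the table. In GENCODE release 29 (GRCh38), 78 loci were present by identifier, 73 of them at the identical position. The parents lay a median of 3589 bases apart among the 77 loci where the gap could be measured, and the parents of 9 loci overlapped. A median of 96.7% of a locus's exon bases also belonged to a parent, and 26 loci had no exon base of their own. In 72 loci at least 1 annotated transcript had a splice junction running directly from a parent's exon to the next parent's exon, and in 57 a junction of this kind lay within a reading frame. Among 53 loci with a promoter entry in RefSeq for both themselves and the upstream parent, 25 had the same promoter window as that parent. How reads falling on shared exons were divided between a read-through row and its parents is not given in the sources used here, nor is the strand setting.

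The junctions are the stretches that tell a read-through transcript from its parents, so the coding junctions of 7 loci that the results turn on are shown, from GENCODE release 29 transcripts, 15 bases on either side, 5′ to 3′ on the transcript's strand. Lower case is the last upstream exon and capitals are the first downstream exon.
ATP6V1G2-DDX39B: agcaagcagcaggcgACAGGCATTTTCCAA
RNASEK-C17orf49: cgcaaggaatacatgGTCGGAGAGATCTTC
SENP3-EIF4A1: ctgcaaactcactgtCCAGGGGAATCCTCC
BLOC1S5-TXNDC5: caggaacgaaaaaagGTGTGGACACTGCCA
C7orf55-LUC7L2: aatttcatggcaaggGAGATACAACTCGTC
ISY1-RAB43: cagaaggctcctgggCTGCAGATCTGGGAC
NME1-NME2: catacaagttggcagGACCATGGCCAACCT
The spliced-out stretch was 3960 bases in ATP6V1G2-DDX39B (chromosome 6, minus strand, from 31546109 to 31542148), 784 in RNASEK-C17orf49 (chromosome 17, plus strand, from 7014277 to 7015062) and 804 in SENP3-EIF4A1 (chromosome 17, plus strand, from 7571479 to 7572284). It was 121643 bases in BLOC1S5-TXNDC5 (chromosome 6, minus strand, from 8026367 to 7904723) and 30440 in C7orf55-LUC7L2 (chromosome 7, plus strand, from 139345621 to 139376062). ISY1-RAB43 skipped 34918 bases (chromosome 3, minus strand, from 129130088 to 129095169) and NME1-NME2 5554 (chromosome 17, plus strand, from 51161272 to 51166827). The transcripts shown for ATP6V1G2-DDX39B, BLOC1S5-TXNDC5 and SENP3-EIF4A1 are annotated as NMD targets, and the other 4 as protein coding. The deposited values are counts per row, not per junction, so no count below belongs to these bases alone.

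The libraries held 10154187 to 11922979 reads. AURKB averaged 39.8 ± 3.92 CPM (counts scaled to library size) in shAURKB and 101 ± 5.10 CPM in shGFP (SD, n = 3 each), a log2 fold change of -1.35 ± 0.08 (SE; edgeR quasi-likelihood test, adjusted p = 0.000254). The studied cells' T-cell markers summed to 2870, 3000 and 2906 CPM in shAURKB and 2754, 2627 and 2789 CPM in shGFP, higher in every shAURKB library, with none of the 10 at 0 in all libraries. One library stood apart: fibroblast markers came to 17.8 CPM in shGFP replicate 1 and at most 0.394 CPM elsewhere, and epithelial markers to 9.31 CPM there and at most 1.17 CPM elsewhere, while erythroid markers were at 0 throughout. Of the 5 fibroblast markers 3 were at 0 in every library. B-cell markers came to 19.6, 18.4 and 15.8 CPM in shAURKB and 21.7, 20.7 and 22.6 CPM in shGFP. They were lower in every shAURKB library, and 2 of the 4 were at 0 throughout. Myeloid markers came to at most 0.587 CPM. The part of RNA from fibroblasts, epithelium or other such cells in the results below was not tested. In bulk RNA, fewer cells of a type and less RNA per cell cannot be told apart.

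The read-through rows drew 71378 reads in all, from 21 to 6907 for a locus with a median of 320. Their summed level was 1027, 1019 and 1184 CPM in the shAURKB libraries, against 1296, 939 and 1087 in the shGFP libraries. The groups overlapped, and the highest value was that of shGFP replicate 1.

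Few read-through loci separated the groups. A filter on low counts left 64 of the 80 for testing, and the 16 that it removed had 21 to 408 reads. At an adjusted p below 0.05, 3 loci rose with AURKB knockdown (ATP6V1G2-DDX39B, RNASEK-C17orf49 and P2RX5-TAX1BP3), 1 fell (TBC1D3P1-DHX40P1) and 60 did not pass. That is 6.25% of the tested loci, against 23.3% of all 14818 tested genes (12.5% higher and 10.9% lower). ATP6V1G2-DDX39B met the minimum and the filter only through its shAURKB reads, so its place in these counts is a description. At an unadjusted p below 0.05, 14 of the 64 loci passed. The share of all tested genes at that threshold was not counted, so this number cannot be read as many or few. The median log2 fold change was -0.04 over the tested loci and -0.00421 over all tested genes. Of the 64 loci, 10 had all shAURKB libraries above all shGFP libraries and 4 had them all below, 21.9% of the loci against 42.7% of all tested genes. The standard error of the log2 fold change had a median of 0.298 for read-through loci, 0.144 for their parents and 0.112 for all tested genes. The shares above are not matched for depth or precision, so they do not show that the loci changed less than other genes. Among the 21 tested NMD candidates 2 rose, ATP6V1G2-DDX39B and P2RX5-TAX1BP3, and 0 fell, with a median log2 fold change of -0.03. ATP6V1G2-DDX39B is counted there as a description. Of the 43 other tested loci 1 rose and 1 fell, with a median of -0.05.

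**Figure D1:**
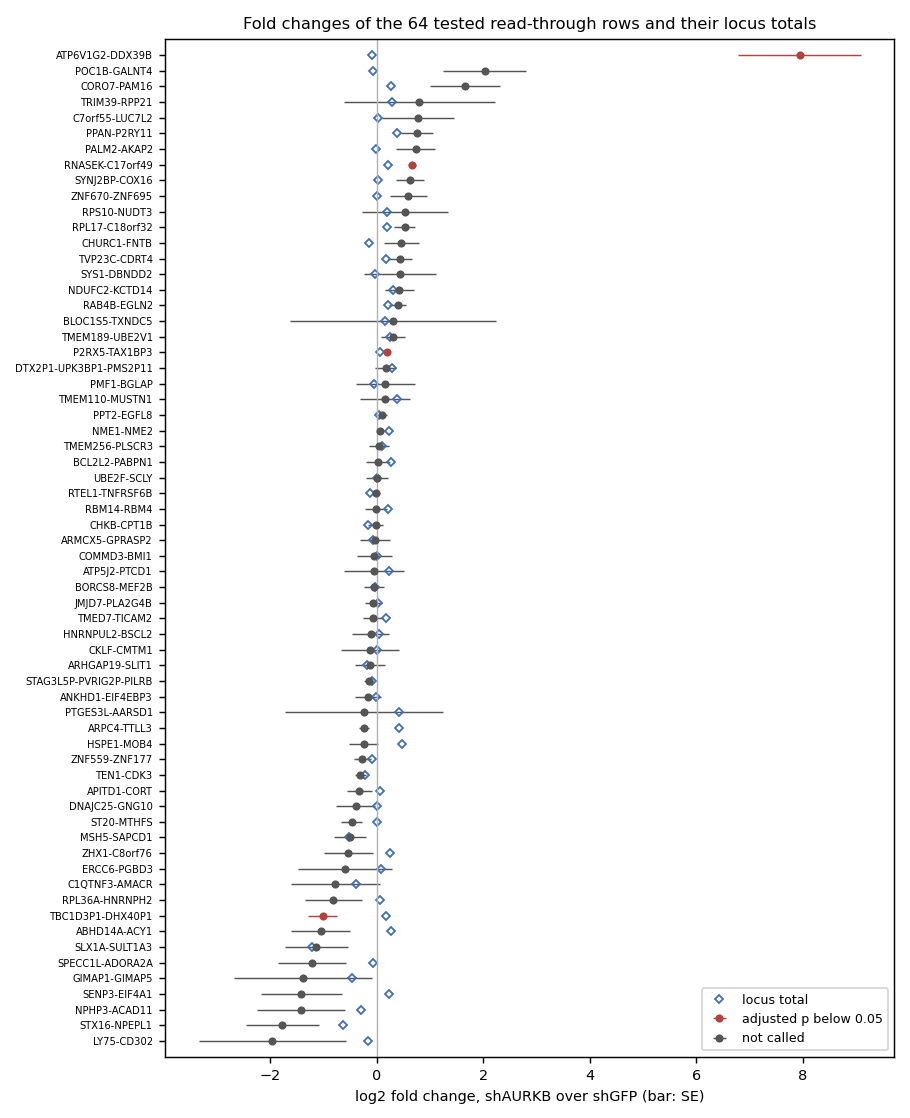
Log2 fold change of each of the 64 tested read-through loci (circles, bars are the SE, red where the adjusted p was below 0.05) and of the summed reads of the locus and its parents (blue diamonds), shAURKB over shGFP. Of the circles 38 lie within 0.5 of 0. Those farthest out have wide bars and diamonds nearer 0, as for ATP6V1G2-DDX39B at 7.94 with a locus total at -0.10. Where the parents hold most of a locus's reads, the diamond follows them.

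ATP6V1G2-DDX39B (ENSG00000254870, chr6:31530219-31546608) joins a proton pump subunit gene to DDX39B, which encodes an RNA helicase of splicing and mRNA export. It had 77, 359 and 120 reads in the shAURKB libraries, against 0, 0 and 2 reads in the shGFP libraries. All shAURKB libraries were above all shGFP libraries, and 64.3% of the read-through row's own reads lay in shAURKB replicate 2. Its log2 fold change was 7.94 ± 1.15 (edgeR, adjusted p = 0.00443), a fitted value that depends on the prior count. As totals, 556 reads in shAURKB and 2 in shGFP give a depth-scaled ratio of 275, with an exact 95% counting interval of 75.7 to 2270. That interval leaves out the spread between libraries. The row met the minimum and the filter only through its shAURKB reads, so its fold, adjusted p and ratio are given as a description. The adjusted p stayed below the threshold in all 12 alternative settings, with log2 fold changes from 6.98 to 10.55. All of them rest on the shAURKB reads that brought the row in, so they add no support and are likewise a description. DDX39B itself had 3424, 2728 and 3341 reads with AURKB shRNA and 3727, 3438 and 3777 with control shRNA (log2 fold change -0.18 ± 0.07, edgeR adjusted p = 0.128). The read-through row therefore held 2.17%, 11.4% and 3.41% of the locus's reads in the shAURKB libraries, and 0%, 0% and 0.052% in the shGFP libraries. Reads of the row and its parents together did not pass, with a log2 fold change of -0.10 ± 0.05 (edgeR, adjusted p = 0.242), and DDX39B was lowest among the shAURKB libraries in replicate 2, where the read-through row was highest. The row has no exon base outside its parents, and the part of read assignment in its difference was not tested.

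RNASEK-C17orf49 (ENSG00000161939, chr17:7012635-7017520) joins the gene of the endoribonuclease RNase kappa to C17orf49. It had 418, 376 and 347 reads in the shAURKB libraries and 246, 222 and 272 in the shGFP libraries. The lowest shAURKB library was above the highest shGFP library. The row rose with a log2 fold change of 0.66 ± 0.08 (edgeR, adjusted p = 0.00187) and kept its call in every alternative setting, between 0.60 and 0.71. Neither parent passed: RNASEK had 256, 173 and 276 reads against 179, 383 and 248 (log2 fold change -0.18 ± 0.30, shAURKB over shGFP), and C17orf49 had 215, 133 and 180 reads against 183, 172 and 174 (0.02 ± 0.15). The read-through row took 48.5 ± 6.1% of the locus's reads in shAURKB and 36.1 ± 6.5% in shGFP (SD, n = 3 each). The shares did not overlap (exact two-sided permutation test, p = 0.1, the smallest that 3 against 3 allows). Per length, it was the highest of the 3 rows, at 9.93 ± 0.63 in fragments scaled for length and depth (FPKM) in shAURKB and 6.52 ± 0.25 FPKM in shGFP. The locus total had a log2 fold change of 0.22 ± 0.12 (edgeR, adjusted p = 0.24).

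The other calls were smaller or rested on fewer reads. P2RX5-TAX1BP3 (ENSG00000257950, chr17:3663063-3696194), an NMD candidate that joins an ATP-gated channel gene to a PDZ-domain protein gene, had 1078, 960 and 924 reads in the shAURKB libraries and 823, 832 and 990 in the shGFP libraries. Scaled for depth, the groups did not overlap, with 91.7 ± 3.7 CPM in shAURKB and 79.8 ± 2.18 CPM in shGFP (SD, n = 3 each), and the row rose by 0.20 ± 0.05 (edgeR, adjusted p = 0.0357). The call was lost in 9 of 12 alternative settings (adjusted p up to 0.104), among them the removal of any library other than shAURKB replicate 3. Of its exon bases 46.8% lay in a parent, and 3141 were its own. TBC1D3P1-DHX40P1 (ENSG00000267104, chr17:59962363-60018975), which joins pseudogenes, had 6, 7 and 8 reads in the shAURKB libraries and 16, 11 and 17 in the shGFP libraries. Its groups did not overlap, and its log2 fold change of -1.02 ± 0.28 passed (edgeR, adjusted p = 0.0381), a call lost when any library was left out, under DESeq2, without the filter and with the replicate block (adjusted p up to 0.121). DHX40P1 had 151, 113 and 126 reads against 90, 122 and 118 and did not pass, while TBC1D3P1 had no reads. None of the 4 called loci had a called parent or a called total.

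**Figure D2:**
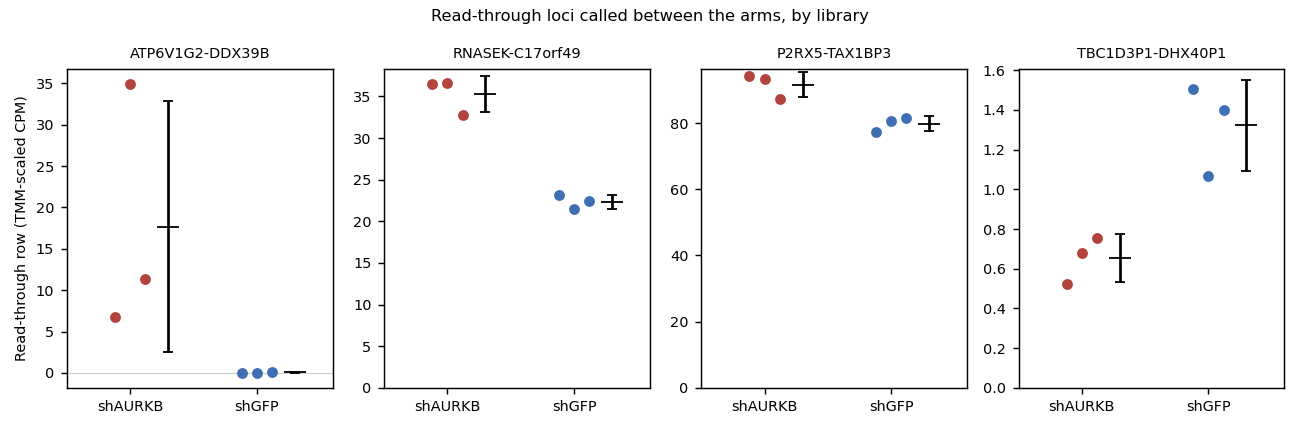
TMM-scaled CPM of the 4 called read-through rows in each library (points), with the mean and SD of the 3 libraries of a group beside them, shAURKB left and shGFP right. The groups do not overlap in any panel, the largest spread is that of ATP6V1G2-DDX39B in shAURKB, and TBC1D3P1-DHX40P1 is lowest, at 0.654 ± 0.119 CPM in shAURKB and 1.32 ± 0.23 CPM in shGFP.

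Several of the most abundant loci changed level between replicates of the same group, while their parents changed the opposite way. SENP3-EIF4A1 (ENSG00000277957, chr17:7563287-7578715) joins the gene of a SUMO protease to that of the translation initiation helicase eIF4A1. It had 337, 373 and 523 reads in the shAURKB libraries, against 1565, 128 and 1791 in the shGFP libraries. The groups overlapped, since shGFP replicate 2 was the lowest library of all and the other 2 shGFP libraries the highest. SENP3 had 1308, 1089 and 1221 reads in shAURKB and 329, 942 and 332 in shGFP, low in the libraries where the read-through row was high. EIF4A1 had 2199, 1733 and 1692 reads in shAURKB and 1103, 1743 and 1180 in shGFP, in the same order as SENP3 within shGFP. From shGFP replicate 2 to the highest shGFP library, the read-through row was 135 CPM higher and the parents together were 135 CPM lower. None of the 3 rows passed: the log2 fold change was -1.42 ± 0.76 for the read-through row (edgeR, adjusted p = 0.22), 1.17 ± 0.43 for SENP3 and 0.49 ± 0.20 for EIF4A1. Without shGFP replicate 2, the library that differed, all 3 passed, at -1.94 (edgeR, adjusted p = 0.00437), 1.94 (0.000773) and 0.79 (0.00572). Over the alternative edgeR and DESeq2 fits their adjusted p ran up to 0.438, 0.213 and 0.286, so these passes do not show a group difference. Summed, the locus varied at most 1.08-fold within a group and rose by 0.23 ± 0.04 (edgeR, adjusted p = 0.00723).

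BLOC1S5-TXNDC5 (ENSG00000259040, chr6:7881522-8064364), an NMD candidate, joins a subunit gene of a lysosome-related organelle complex to the gene of an endoplasmic reticulum disulfide isomerase. It had 18, 23 and 1172 reads in the shAURKB libraries and 990, 0 and 0 in the shGFP libraries. A single library of each group held nearly all of its reads. TXNDC5 had 1726, 1535 and 644 reads in shAURKB and 454, 1438 and 1606 in shGFP, lowest in exactly the libraries with the read-through reads, whereas BLOC1S5 kept to between 331 and 516 reads throughout. The read-through row made up 54.6% of the locus's reads in shAURKB replicate 3 and 54.2% in shGFP replicate 1. The fitted log2 fold change of 0.30 ± 1.93 (edgeR, adjusted p = 0.929) ran from -4.02 without shAURKB replicate 3 to 11.7 without shGFP replicate 1. The locus total varied at most 1.08-fold within a group.

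C7orf55-LUC7L2 (ENSG00000269955, chr7:139341360-139422599) joins a mitochondrial protein gene to that of LUC7L2, a splicing factor of the U1 particle. It had 1083, 953 and 982 reads in the shAURKB libraries and 1308, 159 and 317 in the shGFP libraries. The shAURKB libraries lay together between the high shGFP replicate 1 and the other 2 shGFP libraries. LUC7L2 had 1626, 1365 and 1572 reads in shAURKB and 1299, 2103 and 2481 in shGFP, lowest in shGFP replicate 1. The row's log2 fold change was 0.77 ± 0.68 (edgeR, adjusted p = 0.454). Without shGFP replicate 1 it was 2.16 (edgeR, adjusted p = 0.00387), with LUC7L2 at -0.53 (adjusted p = 0.005). Over the alternative edgeR and DESeq2 fits the adjusted p ran up to 0.728 for the row and 0.528 for LUC7L2. The locus total was level, with a log2 fold change of 0.01 ± 0.05 (edgeR, adjusted p = 0.857). In deposited FPKM, the read-through row stood at 55.2 ± 0.678 in shAURKB and 33.7 ± 36.4 in shGFP. LUC7L2 stood at 10.3 ± 0.561 FPKM in shAURKB and 13.4 ± 3.57 FPKM in shGFP. In reads, LUC7L2 was the deeper row in every library except shGFP replicate 1. The row's 1661 exon bases all belong to its parents, and the lengths behind the FPKM are not given. FPKM therefore does not rank these rows by transcript level.

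ISY1-RAB43 (ENSG00000261796, chr3:129087575-129161036) joins a spliceosome factor gene to that of a small GTPase. It had 0, 0 and 260 reads in the shAURKB libraries and 0, 148 and 0 in the shGFP libraries. It was thus seen in 1 library of each group, and the filter kept it from the test. ISY1 had 929, 900 and 663 reads in shAURKB and 847, 635 and 839 in shGFP, and it was lowest in the library of each group that held read-through reads. RAB43 was lowest in the same 2 libraries, with 310, 249 and 216 reads in shAURKB and 212, 139 and 253 in shGFP. LY75-CD302, which joins genes of an endocytic receptor and a C-type lectin, had 3, 73 and 5 reads in shAURKB and 96, 220 and 1 in shGFP. Its LY75 parent was lowest in each group where the read-through row was highest, at 676 reads in shAURKB replicate 2 and 609 in shGFP replicate 2. CORO7-PAM16, of a coronin and a mitochondrial import subunit, had 65, 46 and 261 reads in shAURKB and 36, 35 and 51 in shGFP. Scaled for depth its groups did not overlap, and the log2 fold change of 1.66 ± 0.66 did not pass with edgeR (adjusted p = 0.117) but did with DESeq2 (1.67, adjusted p = 0.0182). STX16-NPEPL1, an NMD candidate of a syntaxin and an aminopeptidase gene, had 19, 30 and 39 reads in shAURKB and 208, 36 and 64 in shGFP, and likewise passed with DESeq2 (-1.78, adjusted p = 0.0165) and not with edgeR (-1.78 ± 0.69, adjusted p = 0.106). In STX16 itself, shGFP replicate 2 stood out with 1588 reads, against 422 and 680 in the other shGFP libraries and 523 to 682 in shAURKB.

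**Figure D3:**
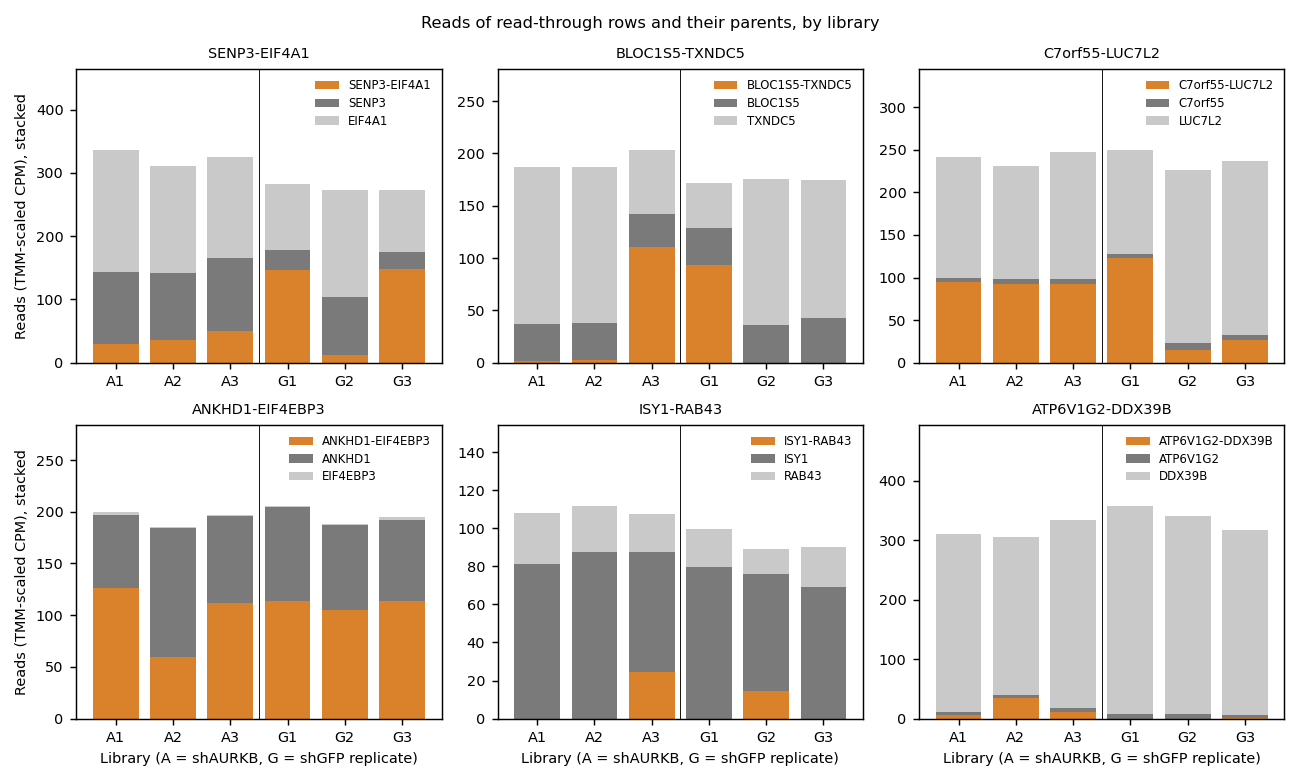
TMM-scaled CPM of the read-through row (orange, bottom) and its parents (dark and light grey) stacked for each library at 6 loci, shAURKB replicates as A1 to A3 left of the line and shGFP replicates as G1 to G3 right of it. The orange share differs between libraries of the same group while the stack heights stay alike, at most 1.13-fold apart within a group in these 6 loci. At ATP6V1G2-DDX39B and ISY1-RAB43 the orange part is thin, so the height there is set mostly by the parents.

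Wide spread within a group was common over the whole set. Among the 60 loci with at least 100 reads, the highest library of a group was at least 3 times the lowest in 23, which is 38.3% against 2.7% of the 13681 genes with at least 100 reads. Read-through rows are shallower than most genes, so the count was also taken within ranges of depth: 18 of 33 loci with 100 reads up to below 500 spread that far, 54.5% against 6.93% of 3219 genes. With 500 reads up to below 7000 it was 5 of 27 loci, 18.5% against 1.66% of 8241 genes. Of the parents with at least 100 reads, 11 of 140 spread 3-fold, or 7.86%. Summed with its parents, none of the 60 loci did. The median spread was 2.14-fold for read-through rows and 1.16-fold for locus totals, with 2.46-fold, in STX16-NPEPL1, as the highest total. Over all 80 loci the row held a median of 9.75% of the locus's reads in shAURKB and 11.4% in shGFP. A total made mostly of parent reads can stay narrow whatever the row does, so this contrast does not show whether reads moved between rows. One of the 23 loci, ATP6V1G2-DDX39B, counts here through its 0, 0 and 2 shGFP reads. Leaving out shGFP replicate 1, the library with fibroblast and epithelial markers, gave 18 loci, and leaving out any other library gave 19 to 23. In 18 of the 23 widely spread loci the parents' summed level was lowest in the library where the read-through row was highest, compared with 16 of the other 37. The count takes no account of size. The row and its parents changed by 135 and -135 CPM at SENP3-EIF4A1, but by 16.1 and -122 at STX16-NPEPL1 and 0.165 and -40.9 at ATP6V1G2-DDX39B. It therefore does not show that reads moved between rows. The share of exon bases held in common with the parents had a median of 97.2% in the widely spread loci and 96.6% in the other loci. Whether the division of reads between rows differed among libraries was not tested.

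**Figure D4:**
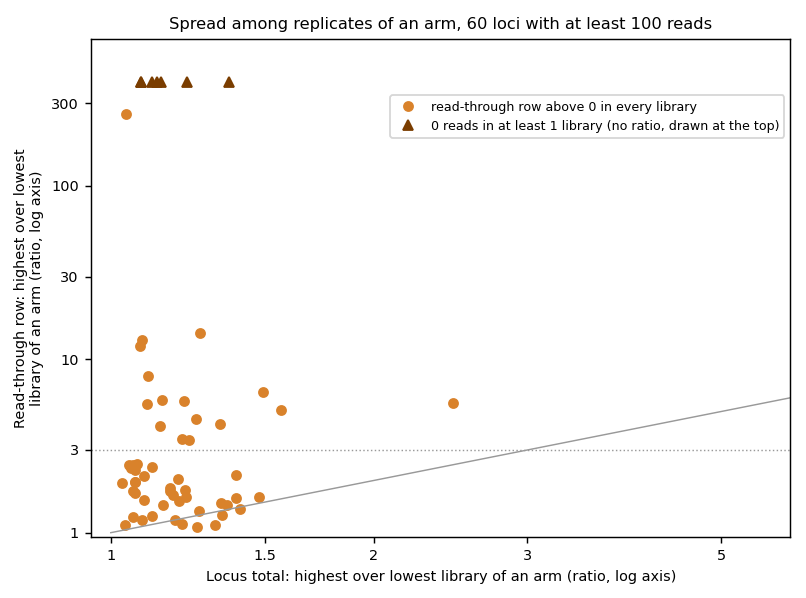
Highest over lowest library within a group (the larger of the 2 groups, log axes) for the summed locus on the horizontal axis and the read-through row on the vertical axis, for the 60 loci with at least 100 reads. Triangles at the top are loci with 0 reads in a library, the dotted line is 3-fold and the grey line is equality. Nearly all points lie above equality, and no locus total reaches 3-fold. In most loci the total is made mostly of parent reads.

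With the read-through row and its parents counted together, 15 of 80 locus totals rose and 8 fell, 28.75% against 23.8% of the 14692 rows of that fit (12.8% higher and 11% lower). In 12 of these 23 loci no row of the locus had passed alone, SENP3-EIF4A1 and ISY1-RAB43 among them. ISY1-RAB43 as a total rose by 0.23 ± 0.06 (edgeR, adjusted p = 0.0266). The largest rises were those of HSPE1-MOB4 at 0.47 ± 0.07 (edgeR, adjusted p = 0.00466) and ARPC4-TTLL3 at 0.42 ± 0.06 (adjusted p = 0.00511), and the largest fall that of MSH5-SAPCD1 at -0.53 ± 0.06 (adjusted p = 0.00125). In all 3 a parent passed as well: the chaperonin cofactor HSPE1 rose by 0.64 ± 0.09 (edgeR, adjusted p = 0.0041), the Arp2/3 subunit ARPC4 by 1.07 ± 0.14 (0.00282), while its partner TTLL3, a tubulin glycylase gene, fell by 0.34 ± 0.07 (0.0158), and the meiotic mismatch-repair homologue MSH5 fell by 0.57 ± 0.08 (0.00473). Their read-through rows did not pass, at -0.25 ± 0.28, -0.25 ± 0.09 and -0.50 ± 0.30. Without 1 library, 9 to 12 totals rose and 3 to 5 fell, while the share of all rows called in those fits was not counted.

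The share of a locus's reads that lay in the read-through row ranged from 0% to 82.5% over the loci and groups. It was below 5% in 29 loci and above 50% in 7. The 7 include TMEM256-PLSCR3, whose PLSCR3 parent matched no row and whose reads the reference gives to PLSCR3 itself. The highest was JMJD7-PLA2G4B, of a hydroxylase and a phospholipase gene, with 78.3 ± 12.7% in shAURKB and 82.5 ± 10.9% in shGFP (SD, n = 3 each). TEN1-CDK3, of a telomere-capping subunit and a cyclin-dependent kinase, followed with 68.5 ± 7.4% in shAURKB and 71.4 ± 5.8% in shGFP. RTEL1-TNFRSF6B, an NMD candidate that begins with the telomere helicase RTEL1, had 504, 501 and 523 reads in the shAURKB libraries and 488, 521 and 572 in the shGFP libraries, while TNFRSF6B had at most 4. The groups overlapped at these 3 loci in their share. The median share over the 80 loci, from the mean of each group, was 9.75% in shAURKB and 11.4% in shGFP, a difference of -1.67 percentage points that turned to 1.28 without shGFP replicate 1. The mean FPKM of the read-through row was above that of every parent in 13 loci in shAURKB and in 16 loci in shGFP. FPKM depends on the length used for each row, which is not given, so these counts do not rank transcript levels.

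Other abundant loci did not pass. NME1-NME2 (ENSG00000011052, chr17:51153590-51171744), which joins paralogous nucleoside diphosphate kinase genes, had 786, 694 and 655 reads in the shAURKB libraries and 684, 679 and 724 in the shGFP libraries. The groups overlapped and varied little, with a log2 fold change of 0.06 ± 0.07 (edgeR, adjusted p = 0.536). Its parents moved without it: NME1, with 1198, 1074 and 1253 reads in shAURKB and 850, 843 and 1029 in shGFP, rose by 0.41 ± 0.06 (edgeR, adjusted p = 0.00588), and NME2 rose by 0.20 ± 0.04 (adjusted p = 0.0189, or up to 0.0629 in the alternatives). Counts of such near-identical genes are uncertain where shared reads are split. The read-through share was thus 16.5 ± 0.7% in shAURKB and 18.6 ± 0.9% in shGFP, without overlap (exact two-sided permutation test, p = 0.1, the smallest possible). ANKHD1-EIF4EBP3, the locus with the most reads, had 1441, 607 and 1180 reads in shAURKB and 1211, 1085 and 1383 in shGFP, and its low shAURKB replicate 2 was the library in which ANKHD1 was highest, at 1285 reads against 813 to 962 elsewhere. The log2 fold change of -0.17 ± 0.25 did not pass (edgeR, adjusted p = 0.669). TMEM189-UBE2V1, of a lipid desaturase and a ubiquitin-conjugating enzyme variant, had 441, 777 and 755 reads in shAURKB and 504, 528 and 628 in shGFP. It did not pass (0.30 ± 0.23, edgeR adjusted p = 0.392), but did without shAURKB replicate 1 (0.56, adjusted p = 0.00784). Over the alternative edgeR and DESeq2 fits its adjusted p ran up to 0.743. RBM14-RBM4, of RNA-binding protein genes, had 604, 440 and 544 reads in shAURKB and 469, 393 and 801 in shGFP, and STAG3L5P-PVRIG2P-PILRB had 535, 442 and 506 in shAURKB and 537, 474 and 689 in shGFP. Neither of these passed, with log2 fold changes of -0.01 ± 0.20 and -0.16 ± 0.09 (edgeR, adjusted p = 0.971 and 0.259).

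Among the parents, 142 of 161 were tested, of which 13 rose and 7 fell, or 14.1% against the 23.3% of all tested genes. These shares are not matched for precision, since the median standard error was 0.144 for parents and 0.112 for all tested genes. Without 1 library 6 to 9 parents rose, and with upper-quartile scaling 6 did, while the share of all genes called in those fits was not counted. Besides those above, the RAB4B GTPase gene rose by 0.72 ± 0.11 (edgeR, adjusted p = 0.0051), and the lymphocyte GTPase gene GIMAP1 fell by 0.57 ± 0.05 (adjusted p = 0.000778). The GIMAP1-GIMAP5 row had only 0, 0 and 12 reads in shAURKB and 17, 0 and 16 in shGFP, against 1052 to 1212 and 1595 to 1957 for GIMAP1.

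The genes that end transcription or remove faulty messages were also counted. Of 31 genes of cleavage, polyadenylation and termination, all tested, 6 rose and 1 fell, with a median log2 fold change of 0.07 against -0.00421 over all tested genes, of which 23.3% passed. Without 1 library 2 to 4 of these genes rose, and with upper-quartile scaling 2 did, while the share of all genes called in those fits was not counted. The poly(A) polymerase PAPOLA averaged 327 ± 7.28 CPM in shAURKB and 257 ± 15 CPM in shGFP and rose by 0.34 ± 0.05 (edgeR, adjusted p = 0.00395). The nuclear poly(A)-binding protein gene PABPN1, itself a parent of BCL2L2-PABPN1, rose by 0.30 ± 0.09 (adjusted p = 0.0447), a call lost in 6 alternative settings. The read-through row BCL2L2-PABPN1 had 63, 79 and 102 reads in shAURKB and 75, 91 and 82 in shGFP, with a log2 fold change of 0.01 ± 0.22 (edgeR, adjusted p = 0.978). Of 21 genes of NMD, all tested, 5 rose and 2 fell, with a median of 0.04, beside the same 23.3% of all tested genes that passed in either direction. The helicase gene DHX34 rose by 0.50 ± 0.08 (edgeR, adjusted p = 0.0051) and MAGOH, of the exon junction complex, by 0.38 ± 0.08 (adjusted p = 0.0172, or up to 0.0587 without a library). The exonuclease gene XRN1, with a log2 fold change of -0.36 ± 0.07 (edgeR, adjusted p = 0.0151), and UPF3B, of the surveillance complex, with -0.33 ± 0.09 (0.0405), were the 2 that fell. Without 1 library 3 to 5 of the NMD genes rose and 0 to 3 fell, again without a count over all genes.

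At the low end, 16 loci had 0 reads in at least 1 library, and each library lacked 4 to 8 of the 80. At least 80% of the reads lay in 1 library in 2 loci, 2.5% against 0.628% of the 17662 genes with at least 20 reads. The 2 were INO80B-WBP1 with 29 reads and NEDD8-MDP1 with 37, whereas 13681 of those genes had at least 100 reads. These shares are therefore not matched for depth and cannot be set against each other. INO80B-WBP1 had all 29 of its reads in shGFP replicate 2, and NEDD8-MDP1 had 0 reads in every shAURKB library and 30, 3 and 4 in the shGFP libraries. ZFP91-CNTF had 0, 17 and 23 reads in shAURKB and none in shGFP. These 3 rows met the minimum only through the group that held their reads, so no fold is given. ATP6V1G2-DDX39B met it in the same way, and its fold above is a description. Just inside the minimum were RNF103-CHMP3 with 22 reads and GPR75-ASB3 with 21, and just outside it BORCS7-ASMT with 18, all in shGFP replicate 3, and EEF1E1-BLOC1S5 with 14. The row TMEM256-PLSCR3 (ENSG00000187838) carries an identifier that the reference names PLSCR3, and it shares no exon base with TMEM256. In that reference its 127, 99 and 73 reads in shAURKB and 92, 95 and 110 in shGFP belong to the PLSCR3 gene, not to a read-through. The rule kept the row among the 80 loci. A second row of that name had 18, 36 and 15 reads in shAURKB and 9, 36 and 5 in shGFP.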

How the data were processed

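RNA sequencing of 6 CUTLL1 libraries was analysed, 3 with AURKB shRNA and 3 with control shRNA, grouped by sample title. The authors deposited whole-number counts and FPKM per Ensembl gene. HISAT2 2.0.4, StringTie 1.3.0, edgeR and GRCh38 (hg38) are named per the submitters' processing notes; the sources used here do not give their roles, the strand setting or the treatment of reads that map to several genes. The FPKM served only to describe rows beside their parents, and the length used for each row is not given in the sources used here.

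Low counts were removed with filterByExpr (a minimum count of 10 and a total of 15), leaving 99.6% to 99.8% of reads, and the rest were scaled by TMM and compared by the two-sided quasi-likelihood test of edgeR 4.0.16 (R 4.3.3), with the group as the single term, Benjamini-Hochberg adjustment over all 14818 genes and a threshold of 0.05. The procedure was tested on simulated data. Every adjusted p is from this test unless DESeq2 1.42.0 is named. Replicates of a group differed beyond sampling noise (chi-square 6.92 to 7.91 for each degree of freedom), so none was a copy. P-values of edgeR and DESeq2 set the group difference against a spread between these libraries that is estimated with help from all tested genes. CPM are TMM-scaled except sums over markers or over read-through rows. The 95% intervals describe counting error alone.

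Parents were the names around the hyphen. Exons, junctions and sequences came from GENCODE release 29. The rule named AURKB, ATP6V1G2-DDX39B, ISY1-RAB43, the called loci, the 8 with the most reads, the 6 with the highest share in 1 library, those next to the minimum, their parents, and 2 called genes per list. Others were named after their values were seen. Locus totals, spreads, shared exon bases and the inspection of TMEM256-PLSCR3 were likewise added after seeing the data. Members and lists were chosen with earlier results of these data known.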

Additional observations from a re-analysis of the deposited data

How the results depend on the processing

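Of the alternatives (the replicate block, RLE and upper-quartile scaling, DESeq2, a filter of 1 CPM in 3 libraries, none, each library left out), upper-quartile scaling, which shifted the median gene by -0.054 (log2), called 2 read-through loci lower, 6 parents higher, and 2 cleavage genes higher and 2 lower. Without the filter 0 loci and 1 NMD gene were called lower, and with the replicate block 0 and 0. Same-numbered libraries did not deviate together over all tested genes (correlations -0.09, -0.03 and -0.04). A pairing limited to some genes was not tested. Without 1 library, 2 to 4 loci were called higher and 0 to 3 lower, 6 to 9 parents higher and 5 to 9 lower, 2 to 4 cleavage genes higher and 1 lower, 3 to 5 NMD genes higher and 0 to 3 lower, 9 to 12 locus totals higher and 3 to 5 lower, and 18 to 23 loci spread 3-fold. The difference in median share was -3.99 points with at least 50 reads, -0.203 with at least 1, -3.02 over the upstream parent alone, -3.37 in FPKM, and -4.11 to 1.28 without 1 library, changing sign without shGFP replicate 1. A threshold of 60% in 1 library gave 6 loci, and a minimum of 50 reads gave 0. The share of all genes called in each setting, or above 60% in 1 library, was not counted. Whether these counts changed with the lists alone or with all genes was therefore not tested.

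Signs reversed for RBM14-RBM4 with the replicate block (log2 fold change 0.0187) and for C17orf49 with upper-quartile scaling (-0.0351). Otherwise signs reversed only where 1 library was left out. Over the alternatives, the log2 fold change of these uncalled genes ran over 0: ANKHD1-EIF4EBP3 -0.38 to 0.10, RBM14-RBM4 -0.17 to 0.26, BLOC1S5-TXNDC5 -4.02 to 11.7, ANKHD1 -0.11 to 0.33, EIF4EBP3 -0.21 to 0.34, PILRB -0.25 to 0.0046, TXNDC5 -0.17 to 0.52, RNASEK -0.40 to 0.22, C17orf49 -0.10 to 0.16, LY75 -0.17 to 0.0871, CD302 -0.15 to 0.23 and STX16 -0.94 to 0.19. The cause of these changes was not tested. Reads per row limit the precision of the shallow loci; the filter left 16 loci, of 21 to 408 reads, untested.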
